A study of Mus musculus with 12 samples.

Results

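A set of 10 genes that respond to the extracellular signal-regulated kinase (ERK) were read on every array of the series, chosen by name as a transcriptional readout of fibroblast growth factor (Fgf) and ERK signalling. They were *Spry1*, *Spry2*, *Spry4*, *Spred1*, *Spred2*, *Dusp4*, *Dusp6*, *Etv4*, *Etv5* and *Egr1*, 10 of the 34836 gene names on the array, represented by 13 of 55681 probes. Of these probes, 12 were bright enough to be tested, at least 1 for every gene. The only one left out was the third *Spred1* probe, which lies in another transcript and was not well above background on any of the 12 arrays.

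The cells were mouse embryonic stem (ES) cells carrying Gata6-GR, in which Gata6, a transcription factor of primitive endoderm, is fused to the ligand-binding domain of the human glucocorticoid receptor so that dexamethasone (Dex) activates it. All cells were grown in ES cell medium with leukaemia inhibitory factor, and RNA was taken at day 4 with or without Dex. Cells of each genotype, *Sox7* (+/−) and *Sox7* (−/−), are called ES cells without Dex and XEN-like cells with it, since they then resemble extraembryonic endoderm, which makes 4 groups of 3 arrays. Both genotypes carry a PGK-pacΔTK selection cassette in place of the *Sox7* coding sequence, on 1 or on both alleles. The heterozygous cells come from 1 clone and the null cells were selected from it by a high dose of puromycin, so each genotype is 1 cell line, and the 2 lines may differ in more than *Sox7*. No group was given Dex without the transgene, so an effect of Dex itself and of Gata6-GR cannot be told apart.

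ERK is the last kinase of a cascade that runs from Fgf receptors through Ras, Raf and Mek. Its activity raises transcription of factors that carry the signal, such as Etv4, Etv5 and Egr1, and of proteins that dampen it, the Sprouty and Spred families and the dual-specificity phosphatases. In the early mouse embryo and in ES cells, Fgf4 signalling through ERK is known for moving cells out of naive pluripotency and for favouring primitive endoderm over epiblast.

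Each signal, after background subtraction, is given as a percentage of the 75th percentile on the same array, and differences are on the log2 scale. Levels of different probes cannot be set against each other. A probe was called where limma gave a Benjamini-Hochberg adjusted p under 0.05 over all 25940 tested probes and the difference was over 2-fold, and a gene with several probes was read by its brightest. The 75th percentile lay between 252.3 and 415.9 intensity units, and 41.7% to 52.3% of the spots were well above background. *Sox7* was 218% to 229% in *Sox7* (+/−) ES cells, 490% to 688% with Dex, and was not well above background on any of the 6 *Sox7* (−/−) arrays. The labels give the sources of the *Sox7* (+/−) ES arrays 1 replicate number and their titles 3, and no source says whether replicates were separate cultures, so the p-values measure only the spread between these samples, which may be technical. One slide held every *Sox7* (−/−) ES array together with replicate 1 of the *Sox7* (−/−) XEN-like cells, and a second slide the remaining 8 arrays.

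Promoter sequences were read from RefSeq (GRCm38.p6) for 6 of the 10 genes, in 7 windows of 250 bases before to 50 after a transcription start. The stretches shown are those of a phosphatase, a Sprouty inhibitor that differed between the genotypes, and the only window with CCGGAA, the 1 form of the ETS motif searched. For *Dusp6* (chr10:99262981-99263230, plus strand) and *Spry1* (chr3:37639697-37639946, plus strand) they are the 250 bases before the start. For *Spry2* (chr14:105896770-105896799, minus strand) they are 30 bases after it. All run 5′ to 3′, and capitals mark a Sox motif in *Dusp6* and an ETS motif in *Spry2*.
Dusp6: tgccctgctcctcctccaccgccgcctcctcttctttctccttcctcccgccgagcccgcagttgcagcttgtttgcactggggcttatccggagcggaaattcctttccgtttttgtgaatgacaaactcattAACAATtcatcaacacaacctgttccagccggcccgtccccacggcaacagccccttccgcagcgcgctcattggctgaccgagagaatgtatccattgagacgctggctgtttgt
Spry1: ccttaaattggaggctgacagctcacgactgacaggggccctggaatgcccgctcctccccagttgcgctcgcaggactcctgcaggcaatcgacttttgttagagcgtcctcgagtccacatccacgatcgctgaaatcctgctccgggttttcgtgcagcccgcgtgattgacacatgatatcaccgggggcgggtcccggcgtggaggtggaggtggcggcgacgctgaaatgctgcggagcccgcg
Spry2: gaggtcatctatcCCGGAAtccgggagggt

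The ETS motif CCGGAA, searched like the others on both strands, was in 1 of the 6 genes (*Spry2*), against 14.9% of all 32851 promoters. The Sox motif AACAAT was in 1 of them (*Dusp6*), against 10.7% of all promoters. None of the 7 windows held a GATA motif, written AGATAA and, in its other searched form, TGATAA, which 18.6% of all promoters held. The EGR motif GCGNGGGCG (5.55% of all promoters) and the CArG box (1.63%) were in none of them either. Such matches describe the letters of these windows and show no binding.

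Dex went with a lower signal of all 10 genes in both genotypes, called in each, with no overlap between the 3 ES and the 3 XEN-like arrays. Of all tested probes, 14.0% were called lower in *Sox7* (+/−) cells and 14.2% in *Sox7* (−/−) cells, and the groups did not overlap in that direction for 26.9% and 35.0%. The median change of the 10 genes was −2.75 in *Sox7* (+/−) cells, against 0.16 over all probes, and −3.84 in *Sox7* (−/−) cells, against 0.07. With *Spry4*, which was not above background in XEN-like cells, set at its bound, these medians were −2.74 and −3.29. With normexp background correction 7 of the 10 genes were called in *Sox7* (+/−) cells, where *Spry4*, *Spred1* and *Spred2* were under 2-fold, and 9 in *Sox7* (−/−) cells, where *Egr1* was. The 2 comparisons have no arrays in common.

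**Figure D1:**
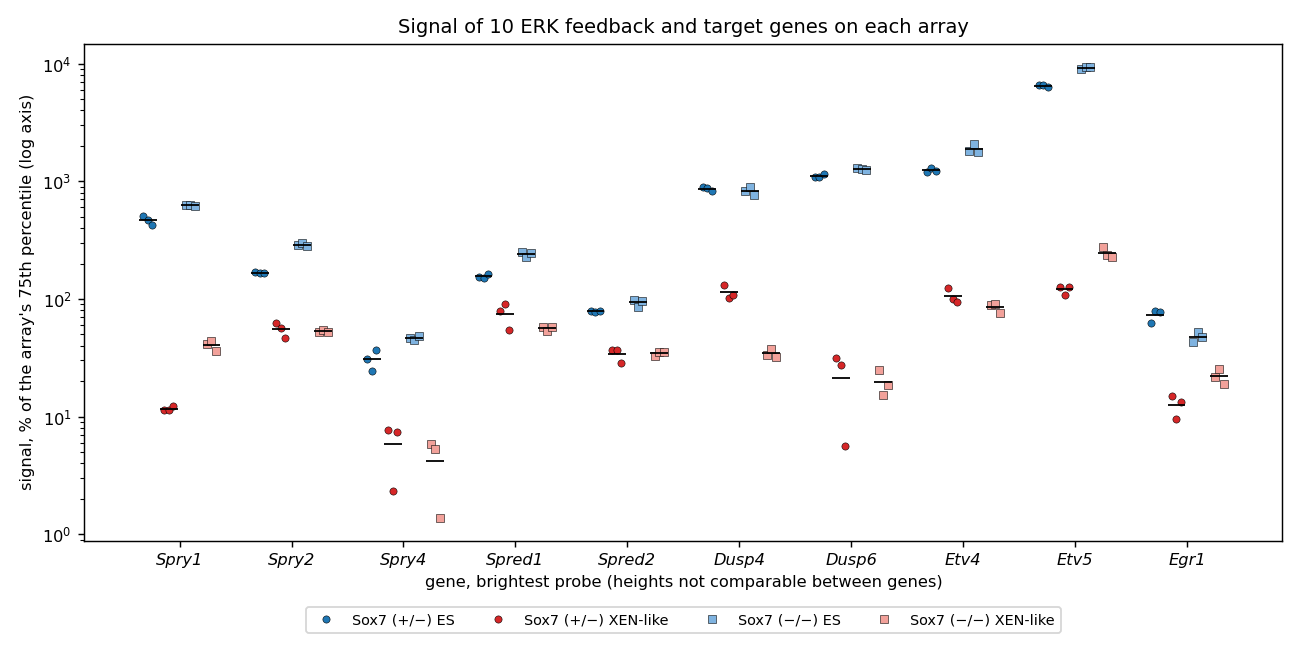
Signal of each gene (brightest probe) on every array, as a percentage of the array's 75th percentile on a log axis, with the mean of each group as a bar (n = 3). For all 10 genes the XEN-like arrays (red) lie below the ES arrays (blue) of the same genotype.

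The Sprouty proteins block receptor tyrosine kinase signalling upstream of ERK. *Spry1* (chr3:37543403-37543462 on mm9, plus strand) was 505%, 466% and 427% on the *Sox7* (+/−) ES arrays and 11.4%, 11.4% and 12.2% on the XEN-like arrays. In *Sox7* (−/−) cells it was 624%, 628% and 618% without and 41.2%, 43.6% and 36.3% with Dex. All ES arrays were thus far above all XEN-like arrays, and the lowest of all were those of *Sox7* (+/−) XEN-like cells, of which only replicate 1 was well above background. The change was −5.32 (standard error 0.09, adjusted p = 3.6e-11 from limma) in *Sox7* (+/−) cells and −3.95 (0.09) in *Sox7* (−/−) cells.

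*Spry2* (chr14:106291845-106291904 on mm9, minus strand), whose start-site stretch holds the ETS motif, was 169%, 167% and 166% in *Sox7* (+/−) ES cells and 62.5%, 56.3% and 46.7% in their XEN-like counterparts. It was 285%, 297% and 283% in *Sox7* (−/−) ES cells, and Dex took it to 52.8%, 54.0% and 52.9%. The genotypes were apart before Dex and overlapped with it, and the fall was by 1.61 (0.09) in *Sox7* (+/−) and by 2.44 (0.09) in *Sox7* (−/−) cells. *Spry4* was dim, at 30.7%, 24.4% and 37.1% in *Sox7* (+/−) ES cells and 46.3%, 44.8% and 48.2% in *Sox7* (−/−) ES cells. None of the 6 XEN-like arrays had it well above background (means 5.80% and 4.18%). It was therefore at least 3.23-fold lower in *Sox7* (+/−) and at least 6.20-fold lower in *Sox7* (−/−) XEN-like cells by the processed signal (adjusted p = 0.0028 and 2.0e-04 from limma). The log2 changes were smaller than these bounds with normexp background correction (−0.79, not called, and −1.56) and in the deposited values (−1.35 and −1.79).

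The Spred proteins, relatives of the Sprouty family that restrain Ras with neurofibromin, both fell. *Spred1* (chr2:117005906-117005965 on mm9, plus strand) was 153%, 152% and 162% in *Sox7* (+/−) ES cells and 79.6%, 89.9% and 54.9% in their XEN-like counterparts. In the null line it went from 248%, 226% and 248% to 57.2%, 53.7% and 58.1%. The change was −1.09 (0.15) and −2.09 (0.15), and the first lies at the 2-fold limit: it was −0.88 without *Sox7* (+/−) XEN-like replicate 3 and −0.86 with normexp background correction, and the second *Spred1* probe gave −0.88 (0.14, not called). *Spred2* (chr11:19922416-19922475 on mm9, plus strand) was 78.9%, 76.7% and 79.5% against 36.6%, 36.9% and 28.6% in *Sox7* (+/−) cells, and 98.3%, 85.8% and 96.3% against 32.5%, 35.4% and 35.4% in *Sox7* (−/−) cells. Its falls were by 1.21 (0.10) and by 1.44 (0.10), with a difference between them of −0.23 (95% confidence interval −0.55 to 0.10). The first was under 2-fold with normexp background correction (−0.77).

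Both phosphatases inactivate ERK by dephosphorylation, Dusp6 in the cytoplasm and Dusp4 in the nucleus. *Dusp6* (chr10:98729985-98730044 on mm9, plus strand), whose promoter is shown above, was 1085%, 1078% and 1156% in *Sox7* (+/−) ES cells and 31.3%, 27.4% and 5.61% in the same line with Dex. The last of these arrays was not well above background. In *Sox7* (−/−) cells it was 1300.4%, 1282% and 1252% without and 24.7%, 15.4% and 18.5% with Dex. The fitted changes were −6.03 (0.52) and −6.06 (0.52). The first was −5.24 without *Sox7* (+/−) XEN-like replicate 3, and with normexp background correction they were −4.58 and −4.96. *Dusp4* (chr8:35882045-35882104 on mm9, plus strand) was 888%, 868% and 826% in *Sox7* (+/−) ES cells and 829%, 894% and 759% in *Sox7* (−/−) ES cells. With Dex it was 132%, 101% and 108% in *Sox7* (+/−) and 33.4%, 37.7% and 32.03% in *Sox7* (−/−) cells. The genotypes overlapped without Dex and were apart with it, and the fall was by 2.93 (0.11) and by 4.59 (0.11).

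Etv4 and Etv5 are ETS transcription factors of the Pea3 group, which mediate responses to Fgf. *Etv5* (chr16:22381387-22381446 on mm9, minus strand) was 6538%, 6592% and 6354% in *Sox7* (+/−) ES cells and 127%, 109% and 127% in their XEN-like cells. In *Sox7* (−/−) cells it was 8929%, 9429% and 9387% without and 274%, 237% and 228% with Dex. The *Sox7* (−/−) arrays were the higher in both states, and the fall was by 5.75 (0.09) and 5.23 (0.09), or 53.7-fold and 37.6-fold. *Etv4* (chr11:101631057-101631116 on mm9, minus strand) was 1205%, 1302% and 1229% in *Sox7* (+/−) and 1818%, 2065% and 1775% in *Sox7* (−/−) ES cells. With Dex it was 124%, 99.996% and 94.2% in *Sox7* (+/−) and 88.2%, 91.3% and 75.9% in *Sox7* (−/−) cells, a difference that did not pass the test (−0.31, adjusted p = 0.060 from limma). The changes were −3.56 (0.12) and −4.47 (0.12), and a second *Etv4* probe gave −3.95 (0.22) and −4.85 (0.22), with overlapping genotypes in XEN-like cells.

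*Egr1*, an immediate early zinc-finger factor, was 62.0%, 79.0% and 76.7% in *Sox7* (+/−) ES cells and 15.1%, 9.57% and 13.4% with Dex. Of these last arrays 1 had it well above background. It was 43.1%, 52.3% and 47.3% in *Sox7* (−/−) ES cells and 21.6%, 25.3% and 19.03% in *Sox7* (−/−) cells with Dex. The *Sox7* (+/−) groups were thus the outer ones and the *Sox7* (−/−) groups lay between them. The fall was by 2.54 (0.18) in *Sox7* (+/−) and by 1.12 (0.18) in *Sox7* (−/−) cells, and in the latter it was under 2-fold in the deposited values (−0.73) and with normexp background correction (−0.64). In *Sox7* (+/−) cells these settings gave −1.79 and −1.22.

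**Figure D2:**
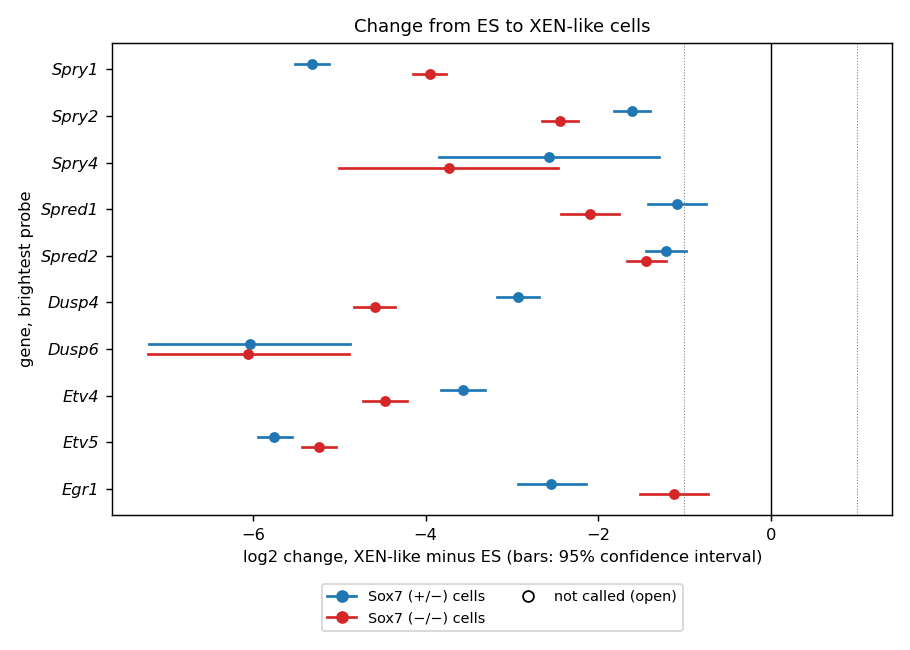
Log2 change with Dex of each gene in *Sox7* (+/−) (blue) and *Sox7* (−/−) cells (red), with 95% confidence intervals from the fit of all 12 arrays, and dotted lines at 2-fold. All 20 changes lie below −1, from −1.09 for *Spred1* to −6.06 for *Dusp6*, and the wide intervals of *Dusp6* and *Spry4* go with signals near background in XEN-like cells (the fitted *Spry4* changes are no bounds).

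On the slide that held both kinds of *Sox7* (−/−) cells (1 XEN-like and 3 ES arrays), all 10 genes were lower with Dex as well, from −1.14 for *Egr1* to −5.69 for *Dusp6*. The *Sox7* (+/−) arrays were all on the other slide. No gene changed direction in either Dex comparison under any other processing tried, including scaling by the spike-in controls, which moved the median change of all probes from 0.16 to −0.36 in *Sox7* (+/−) cells.

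Markers of the 2 cell states moved with these genes. Of 6 pluripotency markers 5 were called lower in each genotype, and *Nanog* and *Sox2* were not well above background on any XEN-like array, while *Klf4* was called higher in *Sox7* (+/−) cells (1.46). The summed signal of the 6 went from 21316% to 22491% to 4898% to 5577% in *Sox7* (+/−) cells and from 45086% to 48408% to 7220% to 7896% in *Sox7* (−/−) cells. Of 8 primitive endoderm markers 5 and 6 were called higher and 0 lower, where 11.0% and 14.6% of all probes were called higher. The endoderm factors *Sox17* (2.46 and 2.41) and *Gata4* (1.54 and 1.74) were among them. Fewer cells of a type and less RNA per cell cannot be told apart in bulk RNA, and the part of the change of cell state in the falls of the 10 genes was not tested. All 4 parietal endoderm markers were called higher in *Sox7* (+/−) cells and 3 of them in *Sox7* (−/−) cells. Of 6 visceral endoderm markers 4 were tested. Of these, 2 were called higher and 1 lower in *Sox7* (+/−) cells, and 3 higher and 1 lower in *Sox7* (−/−) cells. Of 4 fibroblast markers 3 and 2 were called lower, with sums of 361% to 406% and 423% to 450% in ES cells and 41.1% to 78.2% and 45.9% to 53.6% in XEN-like cells, where *Col1a1* and *Thy1* were not well above background. Their part in the falls was not tested. Among 6 genes known to respond to glucocorticoid, 1 was called higher (*Zbtb16*, 1.85 and 1.24) and 1 lower (*Fkbp5*, −2.20 and −2.09) in each genotype.

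The ligands and receptors that feed the pathway did not move one way. Of 10 Fgf ligands, receptors and the adaptor Frs3, 3 were called higher and 5 lower in *Sox7* (+/−) cells, and 3 higher and 4 lower in *Sox7* (−/−) cells. *Fgf4*, the main Fgf ligand of ES cells, was 3765% to 3916% in *Sox7* (+/−) and 5460% to 5798% in *Sox7* (−/−) ES cells and not well above background on any XEN-like array. It was at least 406-fold and at least 749-fold lower in XEN-like cells. *Fgf5*, a ligand of primed pluripotent cells, was at least 23.2-fold and at least 5.56-fold lower. Among the receptors, *Fgfr1* was lower (−2.5 and −2.49), *Fgfr3* (2.78 and 3.60) and *Fgfr4* (2.30 and 3.34) were higher, and *Fgfr2* changed by −0.92 and −0.80, under 2-fold.

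The intracellular cascade moved in both directions. Of its 20 listed genes, 19 were on the array and 18 were tested, and 3 were called higher and 1 lower in each genotype, with medians of 0.06 and 0.12. Of all probes, 11.0% and 14.6% were called higher and 14.0% and 14.2% lower. The adaptor *Frs2*, which links Fgf receptors to Ras, rose by 2.26 and 2.40, and the kinase *Braf* by 1.42 and 1.54. The docking protein *Gab1* was called lower in *Sox7* (+/−) cells (−1.30). The changes of *Mapk3*, the gene of ERK1, were under 2-fold, at 0.07 and 0.70.

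Other negative regulators of the pathway were mixed. Of 12 genes 10 were tested, of which 1 was called higher and 5 lower in *Sox7* (+/−) cells and 2 higher and 2 lower in *Sox7* (−/−) cells. *Il17rd* (Sef), a membrane inhibitor of Fgf signalling, fell by 1.95 and 2.25, and *Dusp1*, a nuclear MAP kinase phosphatase, by 1.82 and 1.47. *Dusp9*, an ERK phosphatase, went the other way, from 1376% to 1496% to 5172% to 6645% in *Sox7* (+/−) cells (1.96) and from 914% to 994% to 3784% to 4228% in *Sox7* (−/−) cells (2.08). *Dusp2* was at least 5.08-fold lower in *Sox7* (+/−) XEN-like cells, and *Spry3* at least 1.43-fold higher in *Sox7* (−/−) XEN-like cells.

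Of 17 other ERK target genes 12 were tested, with 2 called higher and 6 lower in *Sox7* (+/−) cells and 3 higher and 5 lower in *Sox7* (−/−) cells. *Etv1*, the third Pea3 factor, fell by 3.94 and 4.48, and *Ccnd1*, the gene of cyclin D1, was at least 34.0-fold and at least 50.6-fold lower. *Jun*, a subunit of the AP-1 factor, rose by 1.34 and 3.35, and *Srf*, the factor that binds CArG boxes, by 1.08 and 1.61. *Myc*, a growth-promoting factor, fell by 0.71 in *Sox7* (+/−) cells, under 2-fold, and by 3.36 in *Sox7* (−/−) cells.

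**Figure D3:**
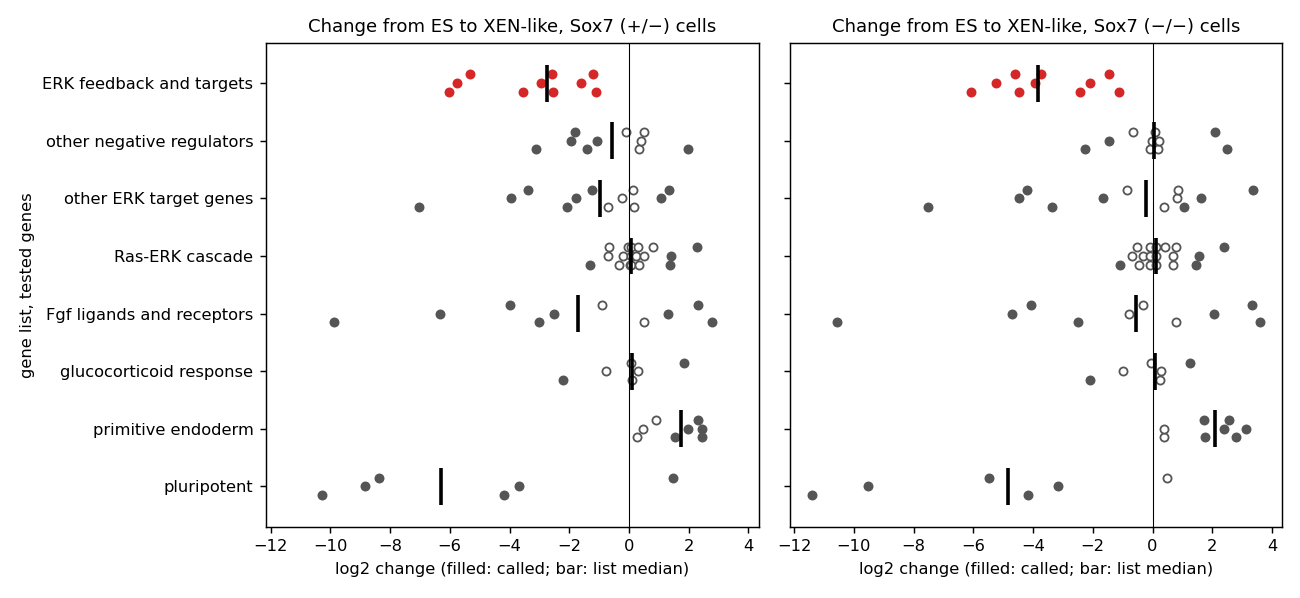
Log2 change with Dex of each tested gene by list, in *Sox7* (+/−) (left) and *Sox7* (−/−) cells (right), filled where called, with list medians as bars. The 10 ERK feedback and target genes lie wholly below 0, while the cascade has medians of 0.06 and 0.12 (genes not above background in XEN-like cells, such as *Fgf4* and *Nanog*, stand at fitted values that are no bounds).

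Whether *Sox7* status went with a different level was asked first in ES cells, where none of the 10 genes was called, against 8.62% of all probes. At an adjusted p under 0.05 of any size, 5 were higher and 1 lower in *Sox7* (−/−) cells, against 28.2% and 16.9% of all probes. *Spry2* differed most (0.79, standard error 0.09, adjusted p = 1.3e-04 from limma), followed by *Spred1* (0.63, 0.15), *Etv4* (0.60, 0.12), *Etv5* (0.51, 0.09) and *Spry1* (0.42, 0.09), and *Egr1* was lower (−0.61, 0.18). The arrays of the genotypes did not overlap for 9 of the 10 genes, against 65.3% of all probes, the exception being *Dusp4*. The ES arrays of the genotypes were on different slides, so genotype and slide cannot be told apart between them. A slide term could be estimated only from the *Sox7* (−/−) XEN-like arrays, 1 against 2. With the slide in the fit, *Spry2* alone kept an adjusted p under 0.05 (0.81, adjusted p = 0.021 from limma). With the *Sox7* (+/−) ES arrays counted as 1 sample, 3 genes did, all higher. Spike-in scaling left 1 higher and 1 lower, and a fit of the compared arrays alone gave 8 higher and 1 lower. Pluripotency markers were also higher in *Sox7* (−/−) ES cells, 3 of 6 called (*Klf4* 1.31, *Esrrb* 1.28, *Zfp42* 1.09). All 4 parietal endoderm markers were lower at an adjusted p under 0.05, 2 of them called (−2.37 to −0.32). Of 4 tested visceral endoderm markers 2 were called lower and 0 higher, and of 8 primitive endoderm markers 0 were called. The part of these markers in the differences of the 10 genes was not tested.

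In XEN-like cells 2 of the 10 genes were called higher and 1 lower in *Sox7* (−/−) than in *Sox7* (+/−) cells, against 3.86% and 3.65% of all probes. *Spry1* was higher by 1.79 (0.09, adjusted p = 6.1e-07 from limma), where 2 of 3 *Sox7* (+/−) arrays were not well above background, and the difference was 0.75 with normexp background correction. *Dusp4* was lower by 1.72 (0.11, adjusted p = 3.3e-06). *Etv5* was higher by 1.02 (0.09, adjusted p = 2.3e-05 from limma), at the 2-fold limit. It was under that limit with the slide in the fit (0.94), normexp background correction (0.92) and quantile normalization (0.96). The same held without *Sox7* (+/−) XEN-like replicate 2 (0.95) or *Sox7* (−/−) XEN-like replicate 1 (0.94).

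These 3 genes differed by similar amounts among the 5 XEN-like arrays of a single slide (2 *Sox7* (−/−) and 3 *Sox7* (+/−)), by 1.77 for *Spry1*, −1.70 for *Dusp4* and 0.94 for *Etv5*. *Egr1* was higher by 0.81 (0.18), under 2-fold, and by 0.16 with normexp background correction (adjusted p = 0.17 from limma). The other 6 genes differed by −0.54 (*Spry4*, not above background in either group) to 0.18 (*Dusp6*), with adjusted p from 0.060 to 0.87. The interval was −0.25 to 0.17 for *Spry2*, −0.98 to 1.35 for *Dusp6* and −1.81 to 0.73 for *Spry4*. In the same cells 4 of 4 tested visceral endoderm markers were called higher in *Sox7* (−/−) cells. The summed signal of all 6 was 3837% to 5067% in *Sox7* (+/−) and 10964% to 11740% in *Sox7* (−/−) cells. *Afp* and *Apoa1* were not above background on any of these arrays. The 4 parietal endoderm markers went the other way, all lower in *Sox7* (−/−) cells at an adjusted p under 0.05 (−0.84 to −0.29), with 0 called. Of 3 trophoblast markers both that were tested were called higher (*Cdx2* 1.72, *Eomes* 1.89), and the sums were 50.5% to 58.3% and 173% to 211%. *Elf5* was not above background in either group. *Cdx2* was not above background on any *Sox7* (+/−) XEN-like array, so its fitted 1.72 is no bound. With *Cdx2* at its bound the median of the tested markers went from 1.80 to 1.03. Of 6 pluripotency markers 2 were called higher and 0 lower in *Sox7* (−/−) XEN-like cells. Their summed signal was 4898% to 5577% in *Sox7* (+/−) and 7220% to 7896% in *Sox7* (−/−) XEN-like cells. *Nanog* and *Sox2* were not above background in either. The part of these cell types and states in the differences was not tested.

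The Dex response itself was compared between the genotypes by the interaction term of the same fit, which called 2 of the 10 genes in each direction, against 6.62% of all probes higher and 3.17% lower. This term takes in the ES arrays, whose genotypes were on different slides. The fall was smaller in *Sox7* (−/−) cells for *Egr1* (difference 1.42, standard error 0.25, adjusted p = 0.0025 from limma) and *Spry1* (1.36, 0.12, adjusted p = 3.2e-05). It was larger for *Dusp4* (−1.66, 0.15, adjusted p = 4.3e-05) and *Spred1* (−1.01, 0.21, adjusted p = 0.0065). The *Spred1* call is at the limit: its difference was −0.99 with the slide in the fit, −0.86 without *Sox7* (+/−) XEN-like replicate 2, and −0.99 (0.19, not called) by its second probe. It was −0.58 (adjusted p = 0.11 from limma) in the deposited values and −0.59 (adjusted p = 0.27) with spike-in scaling, and 14 of 23 alternatives lost the call. *Etv4* (−0.91) and *Spry2* (−0.83) had larger and *Etv5* (0.51) smaller falls in *Sox7* (−/−) cells at an adjusted p under 0.05 but under 2-fold. The second *Etv4* probe gave −0.90 (0.32, adjusted p = 0.061 from limma). With spike-in scaling *Etv4* was at −0.49 and *Spry2* at −0.41, as in the deposited values, with adjusted p from 0.19 to 0.34. *Etv5* stayed under 0.05 in both (0.93 and 0.87). For *Dusp6* the difference was −0.03, with an interval of −1.67 to 1.62. For *Spry4* it was −1.16 (−2.95 to 0.64), from XEN-like levels that were not above background.

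**Figure D4:**
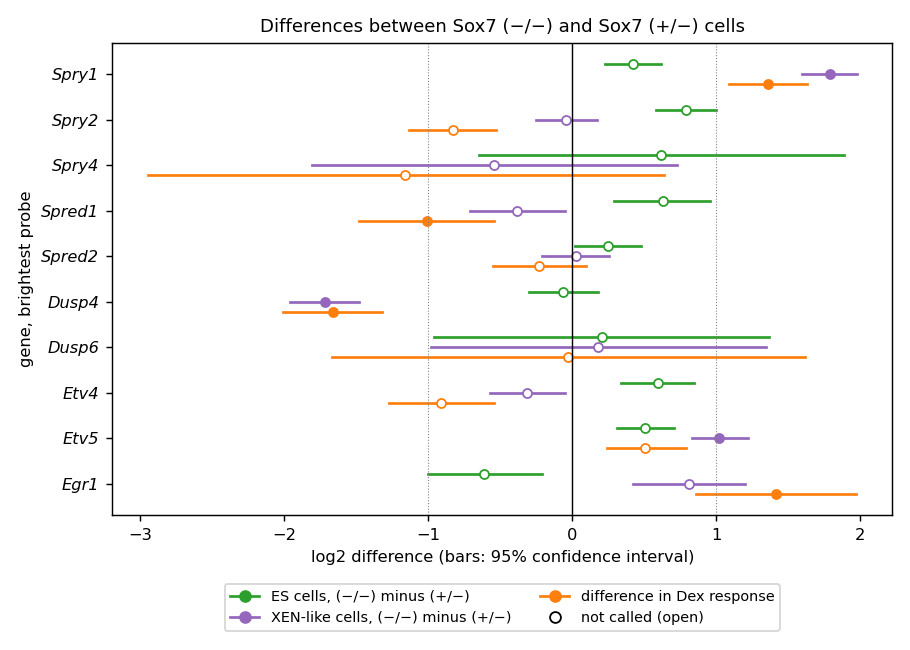
Log2 difference between *Sox7* (−/−) and *Sox7* (+/−) cells for each gene in ES cells (green) and in XEN-like cells (purple), and the difference in Dex response (orange), with 95% confidence intervals, filled where called. *Spry1* and *Etv5* lie above 0 and *Dusp4* below −1 in XEN-like cells, while no green point reaches 1 or −1.

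The 4 genes got there from different sides. *Dusp4* differed by −0.06 in ES cells (interval −0.30 to 0.18) and by −1.72 in XEN-like cells. *Spry1* was higher in *Sox7* (−/−) cells in both states, by 0.42 in ES cells and by 1.79 in XEN-like cells. With normexp background correction these were 0.40 and 0.75, and the difference in response did not pass the test (0.35, adjusted p = 0.070 from limma). *Egr1* was lower before and higher after Dex, the latter not with normexp background correction. *Spred1* was higher before Dex (0.63). Its difference after Dex did not pass the test (−0.38, adjusted p = 0.075 from limma), with overlapping arrays, and was 0.03 in the deposited values. Other genes of the pathway with a called difference included *Myc*, whose fall was larger in *Sox7* (−/−) cells by 2.65 on the log2 scale (−2.65, 0.13), and *Jun*, whose rise was larger by 2.01 (0.14) from a level that was lower in *Sox7* (−/−) ES cells (−2.46).

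Likeness between profiles was measured as the root mean square difference of centred log2 values over the 12 arrays, a description over 4 groups in which all 10 genes fell with Dex. Among the 10 genes, the closest pairs were *Spred1* and *Spred2* (0.25), *Spry2* and *Spred1* (0.28), *Spry2* and *Spred2* (0.40), and *Spry1* and *Etv5* (0.51). For *Dusp4*, which had the largest called difference in Dex response by the processed signal with percentile scaling, the most alike of 15302 genes were *Inf2* (0.24), *Galnt6* (0.27) and *Zcchc24* (0.32). *Inf2*, for an actin-regulating formin, changed by −2.60 in *Sox7* (+/−) and −4.27 in *Sox7* (−/−) cells, close to the values of *Dusp4*.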

How the data were processed

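RNA of the 12 samples had been hybridized to one-colour Agilent arrays. The intensity values deposited by the authors are the output of Agilent Feature Extraction 10.7.3.1, with a processed signal that is background-subtracted within the array and not scaled between arrays, and a series table of linear intensity values close to the mean spot signal. Probe positions are on mm9. Here each processed signal was divided by its array's 75th percentile and put on the log2 scale. Spots of a probe were averaged without outlier flags, and 25940 probes, each well above background in every replicate of some group, were fitted with limma 3.58.1 in R 4.3.3 (1 mean per group, all 12 arrays, 5 comparisons). Called means a Benjamini-Hochberg adjusted p under 0.05 and over 2-fold. Where no array of a group was well above background, a bound was computed per array from the higher of the lowest signal well above background and the probe's own. Names came from the array design. From each other list, the 2 largest called rises and falls were named, plus *Dusp1*, *Fgf4* and the Fgf receptors; *Mapk3*, *Myc* and *Gata4* were named after their values were seen. Results for some cascade genes are not reported here. The 10 genes and all lists were chosen with earlier results of these data known. In simulated data with independent noise, 200 of 25940 probes were shifted by more than 2-fold in the *Sox7* (−/−) XEN-like group alone. The test found 177 in the *Sox7* (−/−) Dex response with 7 false calls, 181 for the XEN-like comparison with 4 and 153 for the difference in response with 6. No slide effect or limit at background was simulated, so these counts do not cover calls at the 2-fold limit or near background. Precision is limited by having 3 arrays per group. Replicate numbers did not pair the arrays (correlations of deviations −0.051 to 0.126).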

Additional observations from a re-analysis of the deposited data

Results flagged for a closer look

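For 4 of the 10 genes the change with Dex differed between the genotypes by a test of the difference itself, the interaction term of limma. The difference in log2 change, *Sox7* (−/−) minus *Sox7* (+/−), was 1.42 for *Egr1*, 1.36 for *Spry1*, −1.66 for *Dusp4* and −1.01 for *Spred1*. With normexp background correction it was 0.58 for *Egr1* and 0.35 (adjusted p = 0.070 from limma) for *Spry1*, and each of these genes was well above background on a single *Sox7* (+/−) array with Dex. *Dusp4* was well above background on all 12 arrays, and its difference was −1.15 with normexp background correction, where *Spred1* was at −0.92. In the deposited values the differences were 1.06 for *Egr1*, 0.84 for *Spry1*, −0.87 for *Dusp4* and −0.58 for *Spred1*. Only that of *Egr1* was over 2-fold there.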

How the results depend on the processing

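All 10 genes kept their direction in both Dex comparisons under every alternative. Of 1170 values for single genes, 1111 kept direction and side of the threshold, 32 fell short of it, 1 passed it and 26 turned sign; the cause was not tested. Only probes well above background on all arrays left 6 genes to be called in each Dex comparison, since *Spry1*, *Spry4*, *Dusp6* and *Egr1* were then not tested, and 2 in the difference in response. Normexp left 7 called genes in *Sox7* (+/−) and 9 in *Sox7* (−/−) cells with Dex, 1 in XEN-like cells and 1 in the difference, and the deposited values 9 in *Sox7* (−/−) cells with Dex and 1 in the difference. With 1 array left out, 9 to 10 genes were called in *Sox7* (+/−) cells, 10 in *Sox7* (−/−) cells, 2 to 3 in XEN-like cells, 0 in ES cells and 3 to 4 in the difference.

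Signs turned, mostly of differences near 0. In XEN-like cells these were *Spry2* (quantile 0.04, spike-in 0.22, deposited values 0.34, −0.16 to 0.05 with 1 array left out), *Spry4* (deposited values 0.06, −1.11 to 0.13 with 1 array left out), *Spred1* (deposited values 0.03), *Etv4* (deposited values 0.13), *Spred2* (normexp −0.05, −0.10 to 0.09 with 1 array left out) and *Dusp6* (normexp −0.19, slide in the fit 0.00, leaving out 1 array −0.61 to 0.63). In ES cells they were *Spry4* (−0.50) and *Dusp6* (−0.34) with the slide in the fit, and *Dusp4* with 1 array left out (−0.12 to 0.00). In the difference in response they were *Spred2* (spike-in 0.19, deposited values 0.13) and *Dusp6* (quantile 0.27, spike-in 0.39, slide 0.34, leaving out 1 array −0.82 to 0.42). *Dusp4* fell under 2-fold in the deposited values (XEN-like −0.97, difference −0.87).

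Among the called probes of each comparison, spike-in scaling and the table changed the share that was higher. This share of the called probes went from 51.4% to 77.7% and 89.9% between genotypes in XEN-like cells. It went from 44.1% to 17.5% and 19.6% in *Sox7* (+/−) Dex responses, and from 67.6% to 90.1% and 89.5% in the difference. Normexp called 3459, 4625, 708, 901 and 1388 probes and the filter on all arrays 3177, 4124, 930, 855 and 1261, against 6471, 7475, 1946, 2235 and 2540 (Dex in *Sox7* (+/−) and *Sox7* (−/−) cells, genotypes in XEN-like and ES cells, difference). The table called 1295 and 1033 between genotypes, and no filter 5425 in the difference. The replicate block called 10, 10, 3, 0 and 4 of the genes, as without it, and the numbers were not treated as a pairing. Counting the *Sox7* (+/−) ES arrays as 1 sample, chosen after seeing the data, gave 3 in the difference. Signal near background limits *Spry4*, *Spry1*, *Dusp6* and *Egr1* in XEN-like cells.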
